A study of Mus musculus with 6 samples.

Results

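The Reg genes *Reg1*, *Reg3a*, *Reg3b*, *Reg3g* and *Reg4* were followed through single epithelial and immune cells of mouse small-intestinal crypts. They were chosen by name, and they make up 5 of the 19178 genes listed in the count tables. All 5 were listed in all 6 tables. Of the family genes outside the choice, *Reg2* had 1 count in 1 table and *Reg3d* had 6 counts in 5 tables. The cells came from untreated C57BL6 mice aged 10 weeks and were read by Drop-seq, which captures single cells in droplets and tags each cell's polyadenylated RNA with a cell barcode and a molecular identifier (UMI). Knockout samples are labelled as an epithelial knock-out of *Ptger4*, the gene of the prostaglandin E2 receptor EP4, and the samples set against them are labelled *Ptger4* flox. Each genotype had 3 collections from 2 biological replicates. The labels do not say which collections share a replicate, and from the codes in the titles, collections 1 and 2 were taken as biological replicate 1 and collection 3 as biological replicate 2. No source used here names the Cre driver, the deleted exons of *Ptger4* or the number of animals per replicate.

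Reg proteins are small secreted lectins of the C type. In mice, Reg3g binds the peptidoglycan of Gram-positive bacteria and helps to keep bacteria off the epithelial surface, and Reg3b acts mainly on Gram-negative bacteria. Both are known to be induced in the small intestine by bacterial colonisation through epithelial MyD88 and by interleukin-22 through STAT3. *Reg1* was described in regenerating pancreatic islets and *Reg4* in secretory cells of the gut.

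Apart from *Reg4*, the members lie together on chromosome 6, where the family's 6 genes span 98.2 kb of build GRCm38. In the GENCODE annotation, *Reg3b* lies at chr6:78370657-78373466, *Reg3a* at chr6:78380709-78383827 and *Reg1* at chr6:78422711-78428667, all on the plus strand. *Reg3g* lies at the far end of the cluster on the minus strand, at chr6:78466269-78468872, and *Reg4* lies on chromosome 3 at chr3:98222156-98236748 on the plus strand. Each gene is protein coding, with 6 exons in the principal transcript, except *Reg1* with 7. Where their transcripts could be aligned, *Reg3b* and *Reg3g* were identical at 76.5% of 736 bases, with a longest shared run of 35 bases over the transcript and 17 bases within the last 300, the end that Drop-seq reads. No source used here says how reads that match both genes were counted.

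*Reg3b* and *Reg3g* varied together across the cells, while the sparse *Reg3a* did so less from cell to cell but followed both across cell clusters. The 250 bases before the RefSeq starts of these 3 Reg3 genes are shown with that in view. They come from RefSeq (GRCm38.p6), read 5′ to 3′ on each gene's own strand, at chr6:78370635-78370884 (plus strand), chr6:78468875-78469124 (minus strand) and chr6:78380459-78380708 (plus strand). Capitals mark matches, on either strand, to the core promoter box TATAAA, to the STAT motif TTCNNNGAA, to the intestinal GATA factor motif AGATAA, to the cAMP response element TGACGTCA or to its shorter form TGACG, which the longer one contains.
Reg3b: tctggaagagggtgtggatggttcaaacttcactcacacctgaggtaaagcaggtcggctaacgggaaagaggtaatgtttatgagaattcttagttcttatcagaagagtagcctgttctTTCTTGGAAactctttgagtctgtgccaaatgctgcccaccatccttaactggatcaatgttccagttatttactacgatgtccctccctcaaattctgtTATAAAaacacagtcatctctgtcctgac
Reg3g: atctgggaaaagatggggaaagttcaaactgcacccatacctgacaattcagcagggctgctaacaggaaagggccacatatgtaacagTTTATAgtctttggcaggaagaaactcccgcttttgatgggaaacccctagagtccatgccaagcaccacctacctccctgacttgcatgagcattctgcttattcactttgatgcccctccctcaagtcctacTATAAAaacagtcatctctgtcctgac
Reg3a: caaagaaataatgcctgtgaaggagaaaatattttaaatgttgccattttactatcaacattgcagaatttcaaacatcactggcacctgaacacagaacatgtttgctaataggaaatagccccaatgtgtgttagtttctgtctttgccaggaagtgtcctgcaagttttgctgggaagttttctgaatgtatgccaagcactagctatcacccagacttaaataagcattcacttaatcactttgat
The *Reg3b* sequence held TATAAA 29 bases before the start and TTCTTGGAA, a match to the STAT letters, 129 to 121 bases before it. The *Reg3g* sequence held TATAAA 27 bases before the start and its reverse complement, TTTATA, 161 bases before it. *Reg3a* held none of the letters searched. However, the last letters of its window resemble those that come before the TATAAA nearest the start in the *Reg3g* window. The *Reg3a* window thus ends short of the like stretch, and its lack of a match is not read as a difference between the genes. Among 32851 promoter windows of the same length, 12.4% held TATAAA, 7.02% TTCNNNGAA, 9.99% AGATAA, 1.55% TGACGTCA and 17.8% TGACG. The windows of *Reg3b* and *Reg3g* were identical at 71.1% of 246 aligned bases. These matches describe letters, not bound sites.

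Of 13191 barcodes, 4890 (37.1%) had at least 300 genes and no more than 25% mitochondrial counts and were taken as cells, with 473 to 1053 cells and median counts of 1070 to 1471.5 per collection. Clustering without the Reg genes gave 15 clusters, of which 12 could be named from marker genes, and 28.2% of cells stayed unnamed. The lymphoid clusters, cluster 10 (B or plasma cell-like) and cluster 11 (T cell or NK-like), held 387 cells and are called immune, and the other 4503 cells are called epithelial. Enterocyte, goblet, Paneth, enteroendocrine, tuft and stem cell markers were all present, while fibroblast, endothelial, muscle and erythroid marker lists summed to at most 8.08 CPM (each gene's counts, scaled so that all genes of the cells in question sum to 1e+06) in any collection. Pancreatic acinar markers, listed because Reg genes are strongly expressed in pancreas, summed to 11.8 to 30.8 CPM. Collections fell into sets that shared cell barcodes by up to 26 in a pair. Knockout collection 1 shared barcodes only with flox collections 1 and 2, and knockout collections 2 and 3 shared them only with each other and with flox collection 3. *Xist* had 1880 counts in knockout collection 3 and 1674 in flox collection 3, and at most 12 in any other, so sex changes together with the replicate number in both genotypes. *Ptger4* had 17.4, 19.1 and 24.5 CPM in the knockout collections, against 11.9, 13.6 and 15.1 CPM in the flox collections. Since the deleted part is unknown, these 3′ counts do not check the genotype.

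*Reg3b* and *Reg3g* were by far the most counted members, with 93383 and 72521 counts in kept cells, against 755 for *Reg4*, 743 for *Reg3a* and 340 for *Reg1*. Their counts were concentrated in 3 clusters, of which 2 were enterocyte-like. Cluster 9 was enterocyte-like and was led by *Apoa4*, *Fabp1* and *Lct*, genes of the proximal small intestine. Cluster 2 was enterocyte-like and was led by *Tmigd1*, *Fabp6* and *Slc51b*, of which *Fabp6* and *Slc51b* handle bile acids in the ileum. *Slc51b* did not set it apart, at 313 CPM in cluster 2 and 325 CPM in cluster 9. The ileal markers *Slc51a* (454 and 479 CPM) and *Muc3* (440 and 698 CPM) were also no higher in cluster 2. *Fabp6* and *Slc10a2* (35.1 and 6.56 CPM) were higher in it. Cluster 4 stayed unnamed, with enterocyte markers summing to 11964 CPM, against 21586 CPM in cluster 2 and 39079 CPM in cluster 9. Over all kept cells they summed to 7840 to 10924 CPM per biological replicate. That list includes *Fabp6*, which alone gave most of the sum in cluster 4 (9157 CPM) and cluster 2 (15086 CPM), but only 753 CPM in cluster 9. The leading genes of cluster 4 were *Reg3g*, *Akr1c19*, *Duoxa2* and *Reg3b*, although the Reg genes had no part in the clustering. These 3 clusters held 1335 cells, 74.5% of the *Reg3b* counts and 65.0% of the *Reg3g* counts.

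*Reg3b* averaged 23552 ± 7187 CPM in cluster 9, 19869 ± 7095 CPM in cluster 4 and 17917 ± 2761 CPM in cluster 2 (SD, n = 4 biological replicates of both genotypes, as in the cluster means that follow). These 3 levels overlapped. The next cluster, the Paneth-like cluster 12, averaged 4764 ± 2835 CPM, and its highest replicate (8263 CPM) lay below the lowest replicate of cluster 4 (12844 CPM). Goblet-like cluster 6 followed at 4639 ± 1855 CPM, cycling-like cluster 3 at 4528 ± 2747 CPM and tuft-like cluster 14 at 3114 ± 1051 CPM, all within each other's spread. The lowest level of a named epithelial cluster was in cluster 8, the stem cell-like cluster led by *Gkn3* and *Lgr5*, at 1286 ± 468 CPM.

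*Reg3g* had a different order at the top. It averaged 16722 ± 4423 CPM in cluster 4, 12525 ± 1235 CPM in cluster 2 and 11285 ± 2413 CPM in cluster 9, and these levels also overlapped. Goblet-like cluster 7, led by *Serpina1b* and the mucus-associated lectin gene *Zg16*, came next at 4779 ± 1279 CPM, followed by goblet-like cluster 6 at 4468 ± 1970 CPM and cycling-like cells at 4392 ± 1584 CPM. Paneth-like cells held 3873 ± 1701 CPM and stem cell-like cluster 8 held 1117 ± 210 CPM. In both genes the Paneth-like level rests on 131 cells with a median of 720 counts. The size of this cluster depended on the clustering, with 26 cells at Leiden resolution 0.5 and 161 cells when Reg genes were allowed among the variable genes.

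**Figure D1:**
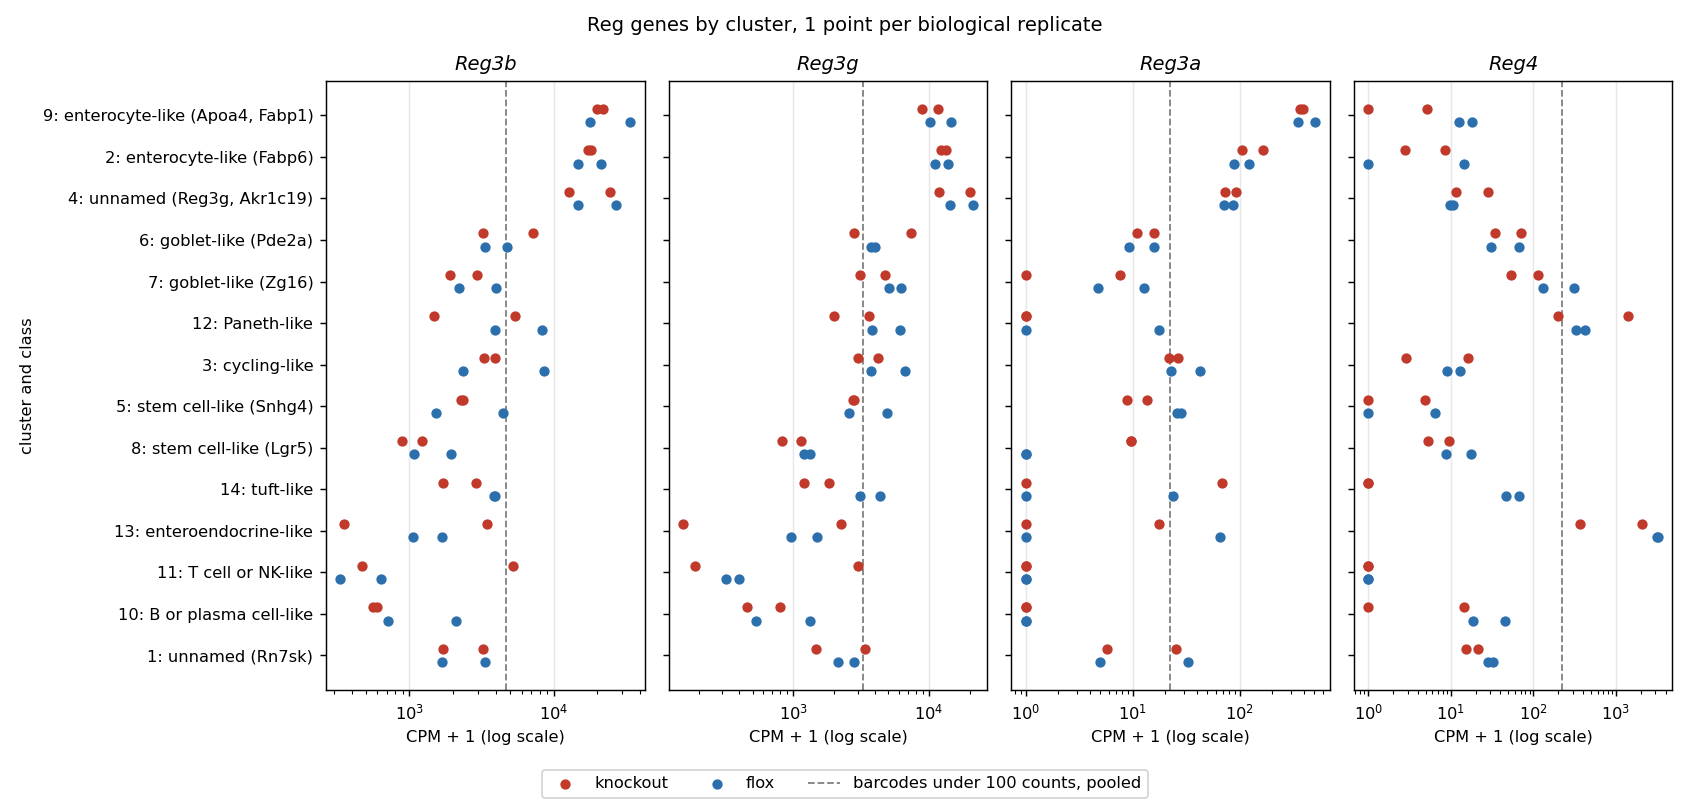
Levels of 4 Reg genes by cluster, as CPM + 1 on a log axis, with 1 point per biological replicate (knockout above flox within each row); the dashed line is the pooled level in barcodes under 100 counts. *Reg3b* and *Reg3g* are highest in clusters 9, 2 and 4, *Reg3a* is highest in cluster 9 and *Reg4* in enteroendocrine-like cluster 13.

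Free RNA was judged from 3763 barcodes with fewer than 100 counts and from immune cells, which are not known to transcribe these genes. Of these barcodes, 2119 came from flox collection 2, 14 from flox collection 1 and 29 from knockout collection 3, so the pooled level is mostly that of a few collections. *Reg3b* stood at 4712 CPM in the low barcodes (95% Poisson interval 4438 to 4998, counting error only) and at 1392 CPM in immune cells (1275 to 1517). Of the immune counts, 1 T cell or NK-like cell held 113 of 211 and 1 B or plasma cell-like cell held 200 of 312. The ratios that follow use levels pooled over all cells of a set, not the means over biological replicates given above. The pooled *Reg3b* level of cluster 9 (22924 CPM) was 4.87 times that of the low barcodes. That of cluster 4 (20114 CPM) was 4.27 times and that of cluster 2 (17322 CPM) was 3.68 times. In Paneth-like cells the ratio was 1.05, and in every other cluster it was below 1. *Reg3g* stood at 3268 CPM in the low barcodes and 924 CPM in immune cells. Its level was 5.21 times that of the low barcodes in cluster 4, 3.73 times in cluster 2 and 3.35 times in cluster 9. The ratio was 1.44 in goblet-like cluster 7, 1.31 in goblet-like cluster 6, and 1.27 in cycling-like and in Paneth-like cells. Among cells with at least 500 UMIs, each thinned to 500, 95.6% of cluster 9 cells, 86.1% of cluster 2 cells and 80.7% of cluster 4 cells kept a *Reg3b* UMI, against 21.1% of immune cells. Shallower cells left out were 3 in cluster 9, 4 in cluster 2, 40 of 485 in cluster 4 and 60 of 387 immune cells. The median depth before thinning was 1963.5, 2181.5, 1111 and 725 counts in these 4 sets, and over all cells of each set, without thinning, the shares were 97.1%, 95.3%, 86.6% and 30.5%. The thinned share was 61.9% in goblet-like cluster 6, 61.1% in Paneth-like cells, 48.4% in cycling-like cells and 25.4% in stem cell-like cluster 8. At 16.1%, enteroendocrine-like cells were below the immune share, which is read as background.

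The proportion of *Reg3b* to *Reg3g* counts differed between clusters 9 and 7 in every collection. *Reg3b* made up 68.7%, 70.4% and 65.4% of the summed *Reg3b* and *Reg3g* counts of cluster 9 in the knockout collections in order, against 63.7%, 64.3% and 70.2% in the flox collections. In goblet-like cluster 7 it made up 45.9%, 25.9% and 38.0% in the knockout collections, against 31.6%, 27.5% and 39.3% in the flox collections. All 6 values of cluster 9 lay above all 6 of cluster 7, and the genotypes overlapped in both. Cluster 2 lay between them at 52.8% to 62.4% and cluster 4 at 50.1% to 57.2%, while stem cell-like cluster 5 gave 32.9% to 48.0%. In the low barcodes the share was 60.7%, 64.8% and 58.8% in knockout and 55.6%, 55.0% and 73.9% in flox, of which that of knockout collection 3 rests on 17 counts and that of flox collection 1 on 9. These are shares of counts and are not scaled for transcript length.

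**Figure D2:**
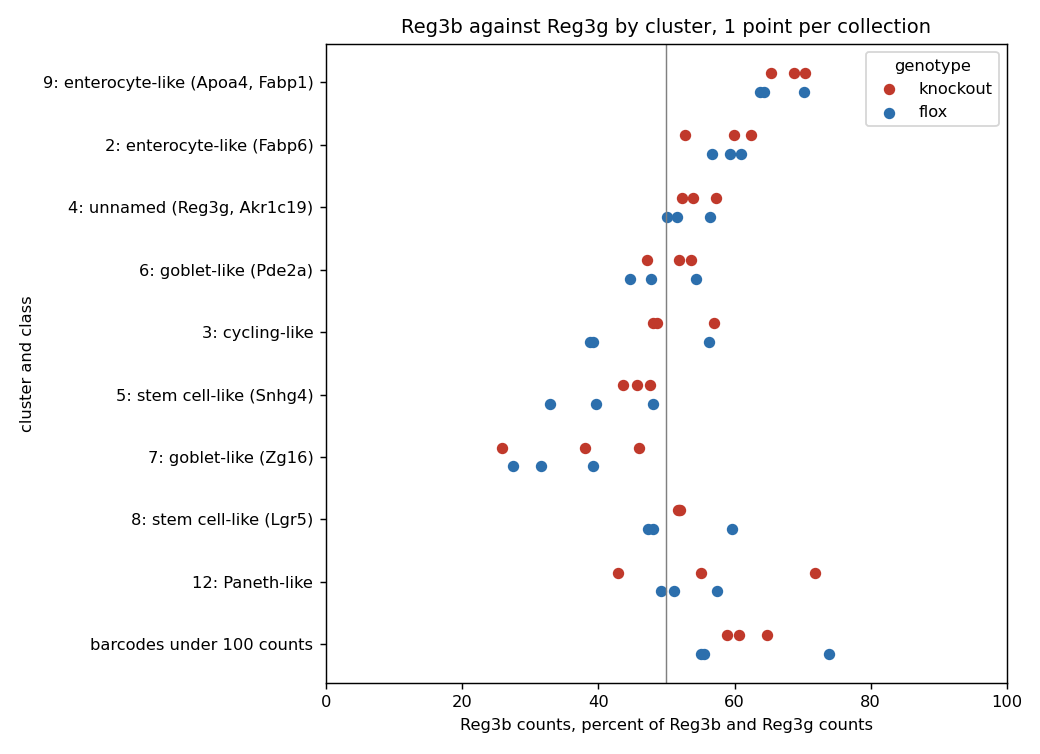
*Reg3b* counts as a percentage of summed *Reg3b* and *Reg3g* counts, by cluster, with 1 point per collection (knockout above flox within each row). Cluster 9 runs from 63.7% to 70.4% and goblet-like cluster 7 from 25.9% to 45.9%.

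Cells of the same cluster differed widely in how much of their RNA was *Reg3b* or *Reg3g*. In cluster 9 both genes together made up a median of 2.93% of a cell's counts, with 0.659% at the 10th percentile and 7.69% at the 90th. In cluster 4 the median was 2.39%, the same percentiles were 0.165% and 8.38%, and 1 cell reached 20.3%. In cluster 2 the median was 2.14%, the percentiles were 0.284% and 6.94%, and the highest cell reached 16.3%. More than 5% of all counts came from these genes in 24.6% of cluster 9 cells, 23.1% of cluster 4 cells and 18.3% of cluster 2 cells. The median was 0.395% in goblet-like cluster 6, 0.483% in Paneth-like cells, 0.0594% in stem cell-like cluster 8 and 0 in both immune classes. Across cells thinned to 1000 UMIs, *Reg3b* and *Reg3g* rose and fell together, with a Pearson correlation of 0.86 in cluster 4 (260 cells), 0.80 in cluster 2 (434 cells) and 0.66 in cluster 9 (226 cells). *Reg3b* and *Reg3a* had correlations of 0.13, -0.04 and 0.07 in the same cells, where *Reg3a* was sparse. Cells of a collection share a library, so these correlations describe the cells and carry no test.

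**Figure D3:**
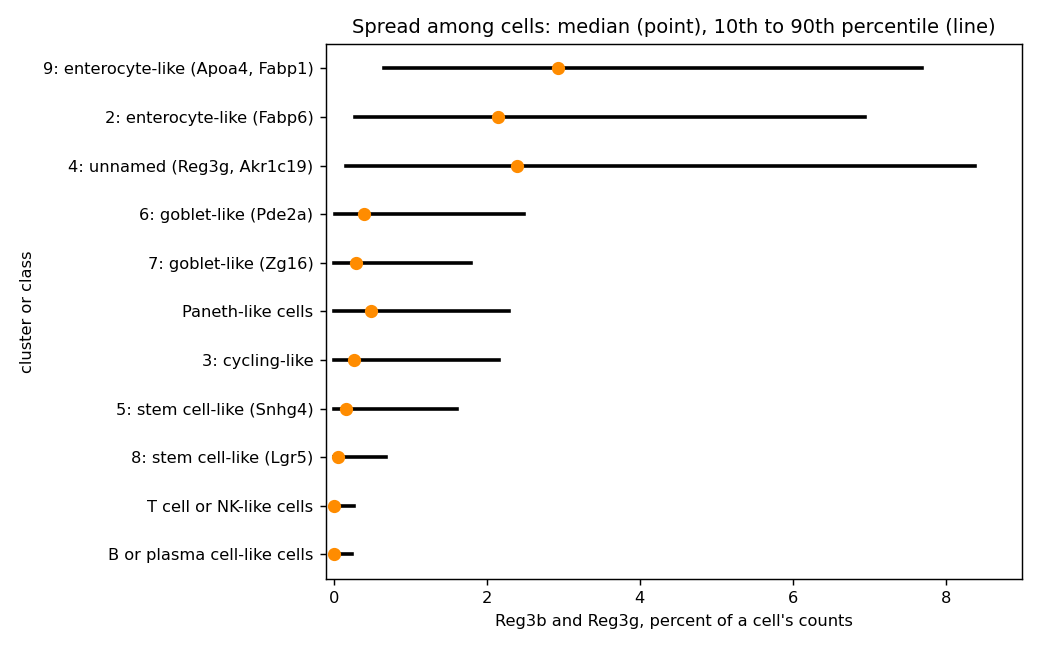
*Reg3b* and *Reg3g* together as a percentage of each cell's counts, with the median (point) and the 10th to 90th percentile (line) by cluster or class, both genotypes pooled. Medians are 2.14% to 2.93% in clusters 9, 2 and 4 and 0 in the immune classes.

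*Reg3a* was the most restricted of the Reg3 genes. It averaged 404 ± 71.6 CPM in cluster 9, 119 ± 32.2 CPM in cluster 2 and 79.9 ± 10.6 CPM in cluster 4. Every replicate of cluster 9 (353 CPM or more) lay above every replicate of cluster 2 (163 CPM or less), whereas clusters 2 and 4 overlapped. Cycling-like cells held 27.5 ± 9.47 CPM, and all the named secretory and stem cell-like clusters were at 22.6 CPM or less on average. No *Reg3a* count was found in 387 immune cells, which allows a level of up to 7.99 CPM, and the low barcodes held 5 counts (21.4 CPM). A *Reg3a* UMI was seen in 48.2% of cluster 9 cells and 23.3% of cluster 2 cells, or 15.8% and 7.37% after thinning. By collection, cluster 9 held 360, 431 and 366 CPM in knockout and 526, 457 and 353 CPM in flox, so the genotypes overlapped.

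*Reg4* was concentrated in very few cells. Of its 755 counts, 393 (52.1%) came from the 94 enteroendocrine-like cells of cluster 13, and 389 of these came from 8 cells with at least 5 *Reg4* UMIs each. Cluster 13 averaged 2196 ± 1328 CPM, Paneth-like cluster 12 averaged 588 ± 551 CPM, goblet-like cluster 7 averaged 152 ± 112 CPM and goblet-like cluster 6 averaged 49.8 ± 21.1 CPM. Neighbours in this order overlapped. Clusters 2, 4 and 9 held 13.97 CPM or less on average, and T cell or NK-like cells held no count, which allows up to 20.9 CPM. The low barcodes held 222 CPM (95% Poisson interval 166 to 291, counting error only), above the 66.0 CPM of all kept cells. Only the enteroendocrine-like and Paneth-like clusters exceeded this level in their means.

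The 8 enteroendocrine-like cells with high *Reg4* came from all 6 collections, with 1, 2 and 2 cells in knockout and 1 in each of the flox collections. They were set beside the 83 cells of the same cluster that had no *Reg4* count, as a description of cells chosen by their *Reg4* level. *Chga*, which encodes the granule protein chromogranin A, stood at 23335 CPM in the 8 cells and at 3524 CPM in the 83. *Chgb*, encoding chromogranin B, stood at 104439 and 28268 CPM. *Tac1*, the gene of substance P, was detected in 8 of 8 cells (6166 CPM) and in 36 of 83 (2286 CPM), and *Tph1*, which encodes the rate-limiting enzyme of serotonin synthesis in the gut, in 4 of 8 (569 CPM) and 20 of 83 (230 CPM). The hormone genes *Gcg*, *Pyy* and *Gip* had no count in the 8 cells, whereas the 83 cells held 938, 203 and 819 counts of them, in 17, 12 and 7 cells. Other hormone genes were present, with *Sct* in 5 of the 8 cells (1233 CPM) and 36 of the 83 (1607 CPM), and *Cck* in 3 of the 8 (379 CPM) and 21 of the 83 (2814 CPM). With 8 cells, a hormone carried by few cells could go unseen.

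*Reg1* was detected in 172 cells, 107 of them with a single UMI. Its highest epithelial levels were 89.8 ± 62.3 CPM in cluster 9, 48.2 ± 22.4 CPM in cluster 2 and 41.1 ± 15.5 CPM in cluster 4, and these overlapped. Paneth-like and tuft-like cells held no count, which allows up to 21.2 and 27.5 CPM. The value of T cell or NK-like cells, 160 CPM pooled, rests on 1 cell with 23 UMIs in knockout collection 1. The low barcodes held 3 counts.

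Genes that followed each member most closely were ranked by the Pearson correlation of log2(CPM + 1) over 48 sums of cluster by biological replicate, which share libraries, and over 6091 genes with a mean of at least 20 CPM. *Reg3b* and *Reg3g* followed each other with a correlation of 0.95. *Reg3a* followed *Reg3b* at 0.81 and *Reg3g* at 0.77. Outside the family, *Reg3b* was closest to *Slc51b*, a subunit of the basolateral bile acid exporter (0.90), then *Apol10a* (0.87), *2200002D01Rik* (0.87), *Mgat4c* (0.86) and *Cyp4f14* (0.86). *Reg3g* was closest to *Lypd8*, which encodes a secreted protein that binds flagellated bacteria in the mouse colon (0.90), then *Mgat4c* (0.87), *Apol10a* (0.87), *Anxa13* (0.86) and *Slc51b* (0.86). *Reg3a* was closest to *Ms4a10* (0.85), *Crip1* (0.82), *Cox4i1* (0.82) and *Txndc17* (0.81). *Reg1* had lower values, led by *Arhgap42* (0.76), *Fam213b* (0.68), *Prkg2* (0.68), *Apob* (0.68) and *Duoxa2* (0.67). *Reg4* was closest to *5330417C22Rik* (0.81), *Cbfa2t3* (0.76), *Ffar2*, a receptor for short-chain fatty acids (0.69), *Selm* (0.69) and *Thbs1* (0.69).

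The genotypes were compared to ask whether Reg expression differs between samples labelled as an epithelial knock-out of *Ptger4* and those labelled flox. No member was called different between knockout and flox. Over all kept cells, *Reg3b* stood at 9093, 8531 and 7691 CPM in collections 1 to 3 of the knockout, against 6022, 6816 and 11518 CPM in those of the flox group. The first 2 flox collections were the lowest and flox collection 3 was the highest of all 6, so the genotypes overlapped. *Reg3g* stood at 7718, 5988 and 5806 CPM in the knockout collections, against 5484, 5876 and 7650 CPM in the flox collections, again with overlap. *Reg3a* stood at 85.8, 62.4 and 54.3 CPM in knockout, against 61.6, 73.9 and 64.6 CPM in flox. *Reg1* stood at 45.6, 29.4 and 21.6 CPM in knockout, against 15.2, 21.4 and 52.8 CPM in flox. *Reg4* stood at 27.5, 94.0 and 43.5 CPM in knockout, against 65.2, 175 and 49.02 CPM in flox. The genotypes overlapped for each of these 3 genes as well.

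Counts were summed per biological replicate and tested across all genes with edgeR's quasi-likelihood test and Benjamini-Hochberg adjustment at 0.05. All 5 members passed the filter on low counts, and 0 of 5 were called, where 0.00947% of the 10555 genes tested were called. At an unadjusted p under 0.05 the members' count was also 0, against 2.23% of genes, and DESeq2 called 0 as well. The log2 fold change of knockout over flox was -0.07 for *Reg3b* (SE 0.25, 95% interval -0.61 to 0.47), -0.02 for *Reg3g* (SE 0.20, -0.46 to 0.42) and 0.04 for *Reg3a* (SE 0.21, -0.42 to 0.50). It was -0.11 for *Reg1* (SE 0.43, -1.03 to 0.81) and -0.44 for *Reg4* (SE 0.27, -1.03 to 0.15). The edgeR adjusted p was 0.9996 for each of the 5. Changes within these intervals are compatible with the data, which hold 2 biological replicates per genotype, and no limit of detection was computed for the members. Among epithelial cells the count was likewise 0 of 5, where 0.00969% of genes were called, and also 0 at an unadjusted p under 0.05, where 2.36% of genes passed. In each cell type that follows, the share of genes called after adjustment is followed by the share with an unadjusted p under 0.05.

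**Figure D4:**
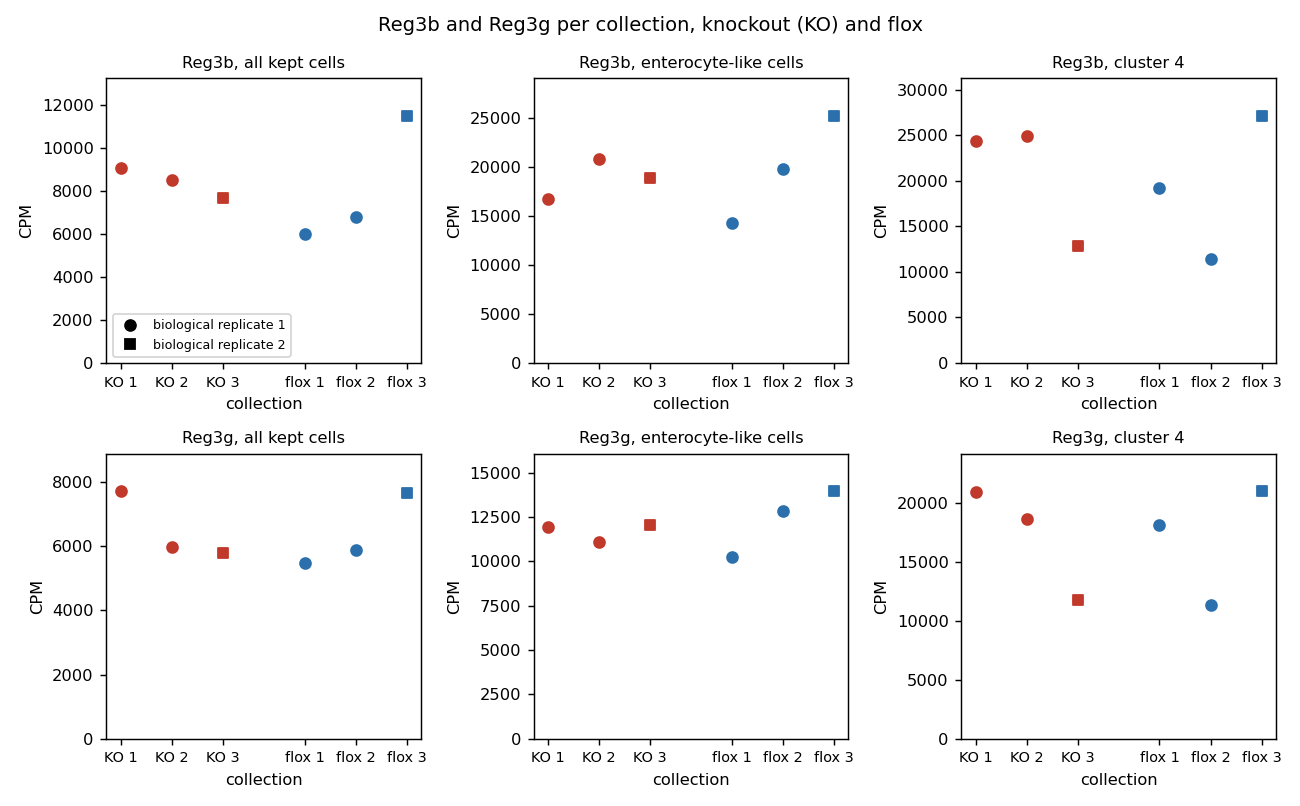
*Reg3b* (top) and *Reg3g* (bottom) in CPM per collection, knockout (KO, left) and flox (right), in all kept cells, enterocyte-like cells and cluster 4; circles are biological replicate 1 and squares biological replicate 2. In all kept cells, *Reg3b* lies between 7691 and 9093 CPM in knockout and between 6022 and 11518 CPM in flox.

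Within cell types no member was called either. In enterocyte-like cells, *Reg3b* stood at 16742, 20843 and 18852 CPM in the knockout collections, against 14293, 19799 and 25232 CPM in the flox collections. *Reg3g* stood at 11961, 11089 and 12069 CPM in knockout, against 10249, 12821 and 13953 CPM in flox. The log2 fold changes were -0.08 (95% interval -0.49 to 0.32) for *Reg3b*, -0.01 (-0.34 to 0.31) for *Reg3g* and 0.14 (-0.41 to 0.68) for *Reg3a*, and 0 of the 4 members tested passed at either level, where 0.0148% and 3.26% of genes did. Of clusters 2, 4 and 9 taken singly, cluster 2 gave 0.03 for *Reg3b* and 0.10 for *Reg3g*, with 0 of 4 members past either level, against 0.017% and 3.56% of genes. Cluster 4 gave -0.13 and -0.12, with 0 of 3 members against 0.0371% and 4.19% of genes, and cluster 9 gave -0.29 and -0.25, with 0 of 4 members against 0.178% and 4.24% of genes.

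In goblet-like cells, *Reg3b* gave 0.22 and *Reg3g* 0.12 on the log2 scale, and 0 of 3 members passed at either level, where 0.0159% and 1.95% of genes did. *Reg4* stood at 62.4, 22.7 and 81.4 CPM in goblet-like cells of the knockout collections, against 211, 75.9 and 46.9 CPM in those of the flox collections, a log2 fold change of -0.84 (95% interval -1.76 to 0.08). In stem cell-like cells, *Reg3b* gave -0.20 and *Reg3g* -0.07, and 0 of 2 members passed at either level, where 0.0397% and 3.91% of genes did. In cycling-like cells, *Reg3b* stood at 3638, 3049 and 3907 CPM in the knockout collections, against 2526, 1598 and 8537 CPM in the flox collections. Flox collection 3 stood far above the other 5, and the remaining flox collections were the lowest. Over biological replicates *Reg3b* averaged 3608 ± 423 CPM in knockout and 5448 ± 4368 CPM in flox (SD, n = 2 each). The p-values that follow rest in part on a spread shared across genes, so they do not reflect this wide flox spread in full. The log2 fold change was -0.57 (unadjusted p = 0.0202 in edgeR's test) for *Reg3b* and -0.50 (unadjusted p = 0.0415) for *Reg3g*. Neither was called after adjustment (adjusted p = 0.999), so 0 of 4 members were called and 2 passed unadjusted, where 0.258% and 3.37% of genes did.

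**Figure D5:**
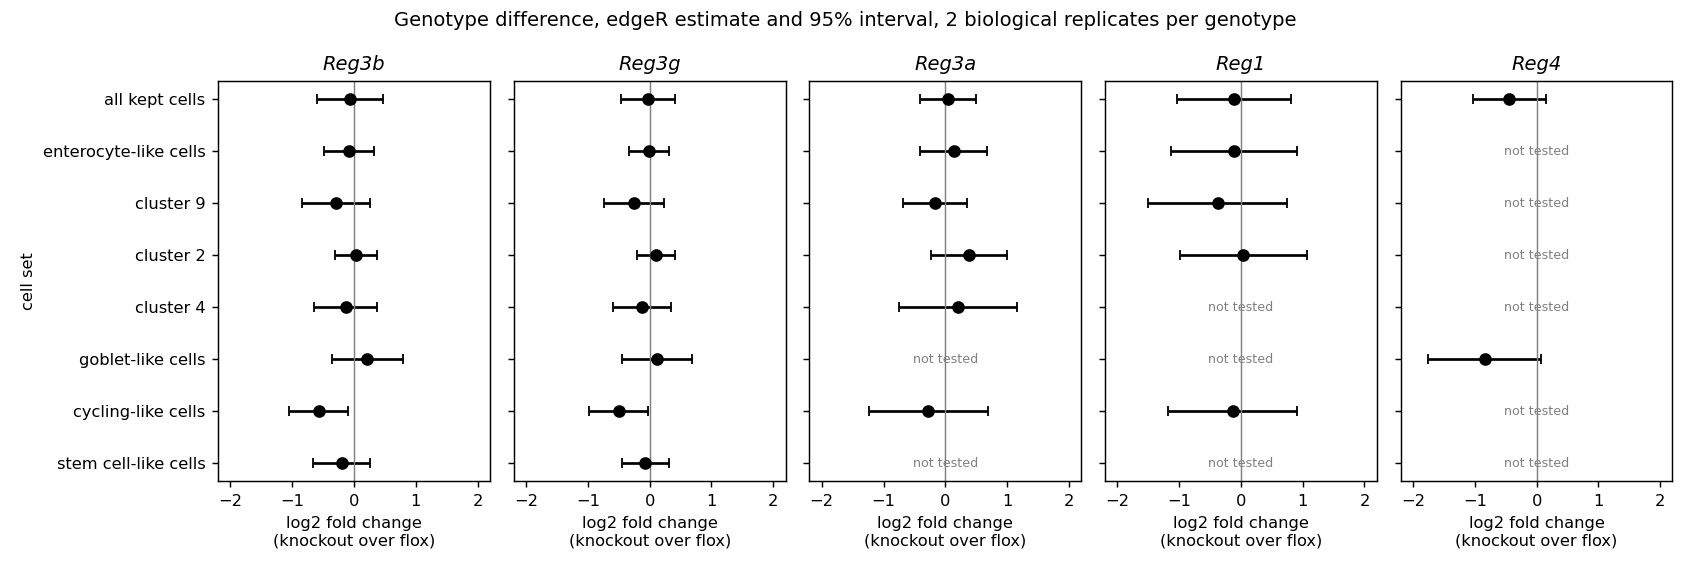
Log2 fold change of knockout over flox for each member and cell set (edgeR estimate with its 95% interval, 2 biological replicates per genotype). The 2 intervals that leave out 0 are those of *Reg3b* and *Reg3g* in cycling-like cells, and neither was called after adjustment. The intervals rest in part on a spread shared across genes.

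The direction of the summed difference depended on which collections were compared. Within the set that shared barcodes with knockout collection 1 (1 knockout and 2 flox collections, all of biological replicate 1), *Reg3b* gave a log2 fold change of 0.57 and *Reg3g* of 0.51. Within the other set (2 knockout collections and 1 flox collection) they gave -0.48 and -0.35, and none of these 4 values was called. *Reg4* gave -2.02 in the first set (edgeR adjusted p = 0.000198), where 0.219% of 10034 genes were called, and 0.48 in the other set. In the first set the spread comes from 2 collections of 1 biological replicate, the single knockout collection is assumed to vary like them, and 1 cell of flox collection 2 carried 139 *Reg4* UMIs. Replicate and sex cannot be told apart in these samples. The sets coincide with them except in knockout collection 2, which is of biological replicate 1 but falls in the other set. The part of each was not tested.

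The make-up of the cells also bears on the sums. Clusters 2, 4 and 9 together made up 29.4% ± 3.66 of the cells called epithelial in knockout, against 29.2% ± 1.85 in flox (SD over 2 biological replicates each). Unnamed cluster 1 made up 20.5% ± 4.41 in knockout and 19.1% ± 0.873 in flox. Paneth-like cells made up 1.94% ± 0.736 in knockout and 3.92% ± 0.507 in flox, and enteroendocrine-like cells 2.69% ± 0.321 and 1.33% ± 0.776. By collection, Paneth-like cells made up 1.31%, 1.54% and 2.46% in knockout, against 5.01%, 2.53% and 3.56% in flox. Enteroendocrine-like cells made up 2.33%, 3.54% and 2.46%, against 1.60%, 2.53% and 0.779%, so the genotypes overlapped. The part of these shares in the *Reg4* sums was not tested. Among epithelial cells with at least 500 UMIs, each thinned to 500, 68.0% ± 0.814 had a *Reg3b* or *Reg3g* UMI in knockout and 71.0% ± 5.79 in flox (exact two-sided permutation test, p = 1, where 0.333 is the smallest p that 2 against 2 allows). This left out 148 of 2271 knockout cells and 79 of 2232 flox cells, and without thinning the shares over all epithelial cells were 81.0% ± 0.224 in knockout and 84.5% ± 5.19 in flox. The 5 members made up 0.777% ± 0.0389 of counts in low barcodes of knockout collections and 0.762% ± 0.138 in those of flox collections (exact permutation test, p = 1). These means rest on very unequal numbers of barcodes, since knockout replicate 2 had 29 such barcodes with 2403 counts, and flox collection 2 alone held 110836 counts.

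Of 55 genes tested from 6 lists, which hold signalling known to control Reg3 genes, defence genes, markers of gut segment and candidate receptors, 0 were called in all kept cells by edgeR, where 0.00947% of all genes were called, and the median of all tested genes was 0.00 on the log2 scale with 50.3% above 0. Among interleukin-22 and interleukin-6 family receptors and STAT3 signalling genes, 10 of 17 were tested, 8 had negative and 2 positive fold changes, and the median was -0.10. *Tyk2*, a kinase bound to these receptors, gave -0.59, *Jak2*, another such kinase, -0.33, the STAT3 target *Pim1* -0.28, and *Il10rb*, the shared receptor chain, 0.32. Of the Toll-like receptor and MyD88 genes, 11 of 14 were tested with a median of -0.20. *Myd88* itself gave -0.02 at 21.5 ± 7.66 CPM in knockout, against 22.1 ± 0.563 CPM in flox, and the inhibitor gene *Nfkbia* gave -0.27.

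Of the defence genes that respond to STAT3, 13 of 21 were tested with a median of 0.10. *Lypd8* stood at 1407 ± 22.3 CPM in knockout, against 1112 ± 39.5 CPM in flox, over biological replicates, a log2 fold change of 0.38. By collection it stood at 1428, 1417 and 1391 CPM in knockout, against 1039, 1437 and 1085 CPM in flox. Flox collection 2 thus lay above every knockout collection. *Duoxa2*, a maturation factor of the hydrogen peroxide-producing oxidase Duox2, gave 0.44. *Pigr*, the receptor that carries IgA into the lumen, gave 0.23 and the Paneth cell ribonuclease gene *Ang4* 0.44. Markers of gut segment were followed because proximal genes led cluster 9 and the ileal gene *Fabp6* was among the leading genes of cluster 2. For the proximal list, 10 of 11 genes were tested with a median of 0.17, with *Fabp1* at 0.37 and *Rbp2*, which binds retinol, at 0.31. For the ileal list, 7 of 9 were tested with a median of 0.23. *Fabp6* stood at 4678, 4754 and 5354 CPM in the knockout collections, against 3747, 3095 and 2902 CPM in the flox collections, a log2 fold change of 0.67 that was not called (unadjusted p = 0.00257, edgeR adjusted p = 0.9996). *Slc51b* gave 0.50. The 4 candidate receptors of Reg proteins had a median of 0.04, and *Sdc1*, which encodes a cell surface proteoglycan, stood at 52.5 ± 5.43 CPM in knockout and 50.3 ± 17.2 CPM in flox. The part of gut segment in the Reg levels was not tested.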

How the data were processed

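The authors deposited raw counts, whole numbers of UMIs per gene and cell barcode, 1 table per collection and without normalization. Per the submitters' processing notes, STAR 2.6 was used with build mm10. No source used here gives the annotation release, the barcode rule or the UMI settings. Totals ranged from 1228337 to 3146909 counts per collection.

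Members and gene lists were chosen with earlier results of these data known. For clustering, each kept cell was scaled to 10000 counts on a log scale, and 2000 variable genes without Reg and mitochondrial genes gave 30 principal components, a graph of 15 neighbours and Leiden clusters at resolution 1.0 (scanpy 1.11.5, leidenalg 0.10.2). Clusters were named from 15 marker lists when at least 3 markers were enriched 1.5-fold in at least 10% of cells and either at least 2 of the top 10 genes or 50% of the list were among them. These thresholds were set after the data were seen. Doublets were not removed, and 27 kept barcodes held over 20000 counts.

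Sums per biological replicate were tested with edgeR 4.0.16 (quasi-likelihood, TMM, filterByExpr with a minimum count of 10) over all genes, in all kept cells, epithelial cells and each class or named cluster with at least 20 cells in each sum. Nothing says that biological replicates were separate animals. The p-values and intervals of edgeR measure spread between these samples, estimated in part across all genes and not from each gene's own replicates alone. The test was first run on simulated data with known fold changes. Those data gave all genes the same spread beyond counting error and held no replicate or sex effect. That run therefore does not show how the test performs on the Reg genes. DESeq2 1.42.0, other size factors, filters, clusterings, single collections, blocks and left-out samples were alternatives. The genes named besides the members were, per list, called genes or else up to 4 with the smallest unadjusted p at a mean of at least 20 CPM, and the 5 genes most correlated with each member, of which 1 is not reported here. Where a count was 0, the level it allows was set at 3 counts. Poisson intervals and these limits cover counting error only. In bulk sums, fewer cells of a type and less RNA per cell cannot be told apart.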

Additional observations from a re-analysis of the deposited data

Results flagged for a closer look

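In several cell sets the 2 biological replicates moved in opposite directions. Both knockout collections of biological replicate 1 lay on one side of both flox collections of that replicate, and in biological replicate 2 the single knockout collection lay on the other side of the single flox collection. The difference between the replicates was not tested, it coincides with sex and in part with the sets of collections that share barcodes, and many gene and cell set pairs were examined. The values are log2 of knockout over flox. In all kept cells, *Reg1* gave 1.17 in biological replicate 1 and -1.29 in biological replicate 2, *Reg3b* gave 0.50 in biological replicate 1 and -0.58 in biological replicate 2 and *Reg3g* gave 0.30 in biological replicate 1 and -0.40 in biological replicate 2. In epithelial cells, *Reg1* gave 0.79 in biological replicate 1 and -1.29 in biological replicate 2 and *Reg3b* gave 0.49 in biological replicate 1 and -0.58 in biological replicate 2. In stem cell-like cells, *Reg3b* gave 0.43 in biological replicate 1 and -0.71 in biological replicate 2. In cycling-like cells, *Reg3a* gave 0.23 in biological replicate 1 and -0.99 in biological replicate 2 and *Reg3b* gave 0.49 in biological replicate 1 and -1.13 in biological replicate 2. In enterocyte-like cells, *Reg1* gave 1.23 in biological replicate 1 and -1.21 in biological replicate 2. In goblet-like cells, *Reg3b* gave 0.96 in biological replicate 1 and -0.67 in biological replicate 2, *Reg3g* gave 0.55 in biological replicate 1 and -0.59 in biological replicate 2 and *Reg4* gave -2.07 in biological replicate 1 and 0.79 in biological replicate 2. In cluster 4, *Reg3b* gave 0.73 in biological replicate 1 and -1.08 in biological replicate 2 and *Reg3g* gave 0.48 in biological replicate 1 and -0.84 in biological replicate 2. In cluster 9, *Reg3a* gave -0.39 in biological replicate 1 and 0.052 in biological replicate 2. *Reg3b* had the positive value in biological replicate 1 in each of the 6 cell sets given for it here, and *Reg4* in goblet-like cells and *Reg3a* in cluster 9 had the opposite order.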

How the results depend on the processing

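The count of called members was recomputed in 216 combinations of cell set and alternative and was 0 in 214 of them. It was 1 in all kept cells and 1 in epithelial cells when only the collections that share barcodes with knockout collection 1 were compared, an alternative chosen after seeing the data, and the member was *Reg4*. Leaving out any biological replicate or collection left the count at 0 in each cell set. The fold changes themselves were not stable in sign. That of *Reg3b* in all kept cells ran from -0.48 to 0.57 and had the other sign in 8 of 23 alternatives, and that of *Reg3g* ran from -0.35 to 0.51 with the other sign in 10 of 23. *Reg1* ran from -1.06 to 1.45, *Reg3a* from -0.24 to 0.43 and *Reg4* from -2.02 to 0.48. Without flox collection 3, *Reg3b* gave 0.47 and *Reg3g* 0.24. The count of called pathway genes was 0 as reported, 1 with no filter on low counts (*Fabp6*, log2 fold change 0.67, adjusted p = 0.043 in edgeR's test), and between 0 and 1 when a biological replicate or a collection was left out. It was 1 without knockout biological replicate 1 (*Apoa4*, -2.37) and 1 without flox collection 3, the whole of flox biological replicate 2 (*Ang4*, 1.53).

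The difference of knockout minus flox in the Reg share of low barcodes was 0.0145 percentage points. It reversed to -0.375 for barcodes under 50 counts, where flox had 1 biological replicate with such barcodes, and to -0.0198 under 200 counts, and leaving out single collections gave -0.0829 (without flox collection 3) to 0.042. The difference in the thinned share of cells with a *Reg3b* or *Reg3g* UMI was -3.08 percentage points, and leaving out single collections gave -3.99 to 1.01, with 1.01 without flox collection 3. The cause was not tested.

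With the biological replicate as a block, 0 members were called and *Reg3b* gave -0.00 on the log2 scale, and with the collection number as a block, 0 were called and *Reg3b* gave 0.16. No block changed a call of a member or of a pathway gene. Over all genes it moved the count of calls. With the biological replicate as a block it was 55 in cycling-like cells, 23 in cluster 2, 18 in cluster 9, 4 in goblet-like cells, 3 in all kept cells and 2 in epithelial cells, against 16, 1, 6, 1, 1 and 1 as reported. The collection number block was fitted on single collections, so its counts are set against those of single collections without a block. It gave 4 calls in cycling-like cells, 1 in cluster 9, 1 in stem cell-like cells and 2 in goblet-like cells. Without the block, single collections gave 2, 4, 2 and 1. Same-numbered collections of both genotypes had correlated deviations from their group means of -0.18, 0.06 and 0.41 for numbers 1 to 3, over 6046 genes, not all over 0.1, so collection numbers were not taken as pairing. Knockout collection 1 correlated best with flox collection 2 (0.28) and knockout collection 2 with flox collection 1 (0.19), each of its own biological replicate. However, the deviations of a genotype's 3 collections sum to 0 for each gene. The positive value for number 3 therefore partly fixes the other values, and the best partners are not separate observations. They come from the data and not from the design. Pairs across biological replicates gave -0.36 to 0.00292. Sex changes together with the replicate number.

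Precision was limited by 2 biological replicates per genotype and, for *Reg1*, *Reg3a* and *Reg4*, by 340, 743 and 755 counts in kept cells, which left some of them under the filter within classes.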
